A study of Mus musculus with 30 samples.

Results

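YAP and its paralog TAZ are transcriptional coactivators that the Hippo kinase cascade holds out of the nucleus. In the nucleus they bind TEAD factors, which contact the DNA, and together they activate genes of growth, matrix and cytoskeleton. In lung epithelium this pathway is known for roles in regeneration and in tumors. The genes described here were Yap1, Wwtr1 (which encodes TAZ), the TEAD genes Tead1 and Tead4, the upstream genes Lats2 (a kinase that phosphorylates YAP and TAZ) and Amotl2 (an angiomotin that binds them), and the target genes Cyr61, Ctgf, Ankrd1 and Axl. Cyr61 and Ctgf are named Ccn1 and Ccn2 in newer annotation, including the one used here. The 10 genes were taken by name, from 21938 protein-coding genes, and all were found in the annotation.

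The measurement was H3K27ac ChIP-seq, which maps acetylated lysine 27 of histone H3, a mark of active promoters and enhancers. The cells were of the mouse tumor lines CK1750 and Tnm2, both derived from lung adenocarcinoma. Each line received the solvent DMSO as control, or 1 µM UNC0638, which blocks the H3K9 methyltransferases G9a and Glp. Groups are named below by line and agent. The labels give 9 H3K27ac samples in 4 groups: 3 of CK1750 DMSO and 2 for each of the other groups, and no duration of treatment. Of the CK1750 DMSO samples, 2 share a replicate number and differ in the number of the sequencing run. Both CK1750 UNC0638 samples carry replicate number 2, so CK1750 had 2 replicate numbers with DMSO and 1 with UNC0638, and each Tnm2 group had 2. Each line is a cultured tumor line, so the samples of a line are not separate animals. Each group had 1 merged peak list, so no value had a replicate, no spread could be given, and no test between groups was possible. For CK1750 the lists held 27367 peaks (DMSO) and 24601 peaks (UNC0638), and for Tnm2 they held 30641 peaks (DMSO) and 18794 peaks (UNC0638). Where 4 values follow each other below, they are given in this order of lists. Sequencing depth was unknown, and the difference in list length between groups cannot be told apart from a difference in depth.

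Each peak had a score, −10 log10 of its P value in the authors' peak caller, which grows with depth. Scores were therefore used for rank within a list. A peak's percentile is the share of its list's peaks with a lower score, ties counted as equal parts above and below, and rank 1 is the highest score. Scores piled up at 3100, where peaks shared 1 rank. A promoter peak lay within 2.5 kb of an annotated start site of the gene, and a distal peak lay elsewhere within 50 kb of the gene. Coordinates are those of mm10.

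The cells' labelled origin was checked on promoter peaks. The epithelial genes Cdh1, Krt8 and Krt18 and the lung genes Nkx2-1, Sftpc and Foxa2 had promoter peaks in all 4 lists, whereas Epcam and Cldn4 had none in any list. Of 6 markers of other cell types, Ptprc, Cd3e, Cdh5 and Myh11 had none in any list. Pecam1 had a promoter peak in both Tnm2 lists, and Col1a1 had one in every list but that of Tnm2 UNC0638.

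TEAD factors bind a short element whose core is GGAATG. On the other strand this core reads CATTCC. The RefSeq promoter table (GRCm38.p6) had entries for 7 of the 10 genes; Tead1, Tead4 and Ctgf had no entry. In the 250 bases before the start site, 6 of these 7 genes held GGAATG on either strand, and Lats2 did not. These 7 genes had 9 windows, of which 7 held it (77.8%), beside 12.6% of all 32851 promoter windows of the table. The Wwtr1 windows overlapped and held the same site, which was thus counted more than once. The genes were chosen as known parts of the pathway, so this share is a description. The AP-1 element TGANTCA, which reads the same on both strands, was in 0 of the 9 windows of these genes and in 6.75% of all windows. The sites are shown because each of them lay inside a promoter H3K27ac peak in all 4 lists. They are printed 5′ to 3′ on the strand that reads GGAATG, which is in capitals.
Wwtr1, chr3:57576029-57576058, minus strand: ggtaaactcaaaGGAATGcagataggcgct
Yap1, chr9:8004720-8004749, minus strand: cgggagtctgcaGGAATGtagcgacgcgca
Amotl2, chr9:102717727-102717756, minus strand: gctgctatgccaGGAATGtgagagtttcag
Cyr61, chr3:145650071-145650100, plus strand: tcaaacatctcaGGAATGttggttggcgcg
Axl, chr7:25788949-25788978, minus strand: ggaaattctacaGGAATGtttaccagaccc
Ankrd1, farther from the start, chr19:36120037-36120066, minus strand: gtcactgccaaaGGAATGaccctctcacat
Ankrd1, nearer to the start, chr19:36119950-36119979, minus strand: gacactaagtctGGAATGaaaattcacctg
The sites began 136 bases (Wwtr1), 141 bases (Yap1), 65 bases (Amotl2), 103 bases (Cyr61), 233 bases (Axl), 210 bases and 123 bases (both Ankrd1) before the RefSeq start site. The Amotl2 and Ankrd1 sites lay in an exon of another annotated transcript.

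The whole upstream window is given for Cyr61, whose promoter peak ranked highest among the 10 genes in the Tnm2 lists and shared the highest rank in the CK1750 lists. The window is chr3:145649986-145650235, minus strand, with CATTCC in capitals.
Cyr61: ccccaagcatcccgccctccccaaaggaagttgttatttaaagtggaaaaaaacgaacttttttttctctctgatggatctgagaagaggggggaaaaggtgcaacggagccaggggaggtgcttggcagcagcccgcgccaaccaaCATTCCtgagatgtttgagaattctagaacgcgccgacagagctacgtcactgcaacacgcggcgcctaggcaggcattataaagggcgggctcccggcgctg

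Distal sequence was read from the same genome build. Of the 95 regions that the joined lists gave for the 10 genes, 71 were distal, and 52 of these lay away from every annotated start site. In the central 300 bases, GGAATG on either strand was in 13 of the 52 (25%), beside 18% of all 20537 such regions. TGANTCA was in 6 of the 52 (11.5%), beside 15.3% of all. Among regions found in all 4 lists, 7 of 15 held GGAATG (46.7%, beside 20.1% of 3898 regions), and 1 of 15 held TGANTCA (6.67%, beside 19.1%).

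From the sequence common to all 4 lists, 300 bases with the most matches are given for 3 distal peaks, on the strand of the gene, with the TEAD and AP-1 elements in capitals. They are the peak upstream of Ankrd1, the peak in the last part of Tead4 and the peak within Axl. These are examples from the 15 regions away from start sites in all lists, among which that of Yap1 held neither element. The stretches were chosen for their matches, so their counts have no background.
Ankrd1, chr19:36129320-36129619, minus strand: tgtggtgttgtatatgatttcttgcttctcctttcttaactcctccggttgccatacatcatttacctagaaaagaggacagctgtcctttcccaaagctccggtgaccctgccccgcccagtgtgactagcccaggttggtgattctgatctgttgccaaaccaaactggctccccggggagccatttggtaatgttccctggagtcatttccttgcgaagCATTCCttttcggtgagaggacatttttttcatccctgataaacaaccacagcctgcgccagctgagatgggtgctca
Tead4, chr6:128225564-128225863, minus strand: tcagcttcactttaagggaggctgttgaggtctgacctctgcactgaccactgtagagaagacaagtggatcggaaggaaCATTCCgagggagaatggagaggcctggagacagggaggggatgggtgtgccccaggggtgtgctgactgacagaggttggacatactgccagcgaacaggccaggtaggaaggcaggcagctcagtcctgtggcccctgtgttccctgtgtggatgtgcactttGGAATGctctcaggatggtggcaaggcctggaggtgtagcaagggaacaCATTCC
Axl, chr7:25781589-25781888, minus strand: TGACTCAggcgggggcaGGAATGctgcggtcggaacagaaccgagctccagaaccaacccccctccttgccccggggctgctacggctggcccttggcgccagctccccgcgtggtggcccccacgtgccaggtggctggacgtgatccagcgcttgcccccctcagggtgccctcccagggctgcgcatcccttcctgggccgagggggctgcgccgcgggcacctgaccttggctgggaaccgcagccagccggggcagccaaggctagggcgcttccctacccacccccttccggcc
The Tead4 stretch held 3 TEAD matches, the Axl stretch held 1 of each element, and the Ankrd1 stretch held 1 TEAD match and no AP-1 match.

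All 10 genes had a promoter peak in all 4 lists, whereas 39.3% of all protein-coding genes did. By list, the share of protein-coding genes with a promoter peak was 50%, 49.1%, 49.4% and 41.3%. The median percentile of the 10 best promoter peaks was 97.7, 97.6, 96.1 and 92.6. Beside these, the medians over all protein-coding genes with a promoter peak were 77.2, 74.1, 77.3 and 69.1. Of the 10 genes, 9, 9, 7 and 8 ranked above the middle of those genes. Any annotated start site counted, so a gene with more of them had more places for a promoter peak. The background was not matched for the number of start sites, which was 13 for Tead1 and Amotl2 and 1 for Cyr61. Yap1, Wwtr1, Tead1, Lats2, Amotl2 and Cyr61 had percentiles of 92.6 or above in every list, and Ctgf, Ankrd1 and Axl of 87.5 or below. Tead4 lay between, from 95.3 in CK1750 DMSO to 80.5 in Tnm2 UNC0638. For some genes, a start site of another annotated gene also lay within 2.5 kb of the best promoter peak. These were Yap1 (Gm45494), Tead1 (2310014F06Rik), Lats2 (Gm49361), Cyr61 (Gm17501) and Ctgf (Gm15270).

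**Figure D1:**
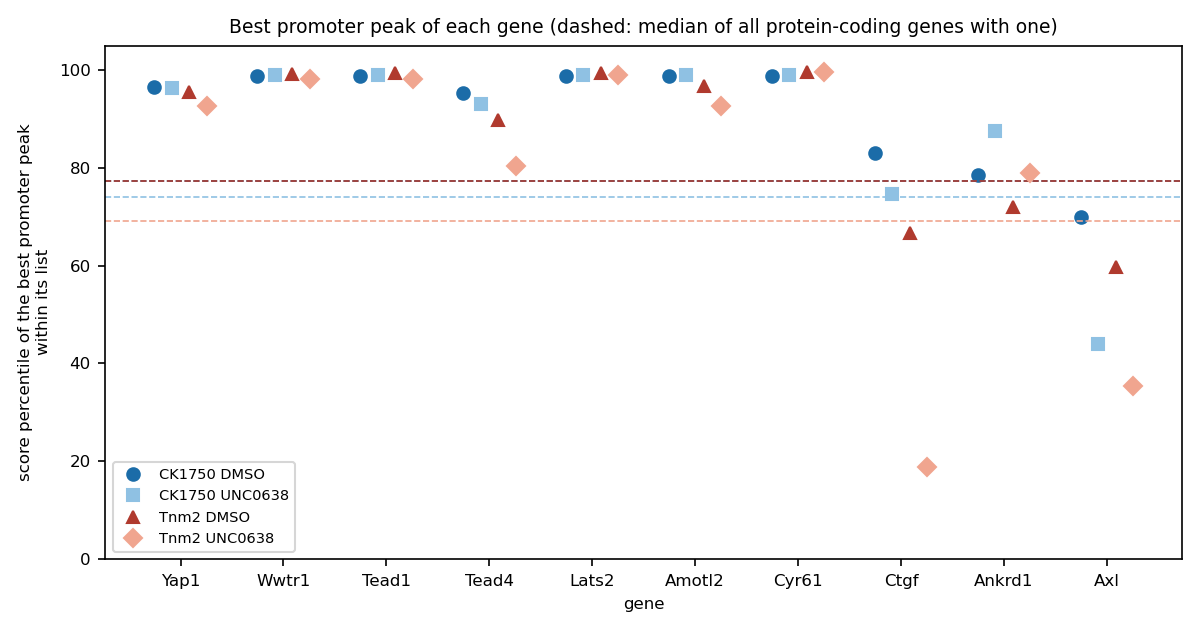
Score percentile of the best promoter peak (y axis) for each gene (x axis) in each of the 4 peak lists, with the median of all protein-coding genes that had a promoter peak as dashed lines. Yap1, Wwtr1, Tead1, Lats2, Amotl2 and Cyr61 lay at 92.6 or above in all lists, while Ctgf reached 18.9 in Tnm2 UNC0638.

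The coactivator genes had high-ranking promoters. The Yap1 promoter peak (at the 5′ end of the gene, chr9:7931999-8004596, minus strand) scored 2525 in CK1750 DMSO, 2171 in CK1750 UNC0638, 1349 in Tnm2 DMSO and 561 in Tnm2 UNC0638. Its percentile was 96.6, 96.3, 95.5 and 92.6, and its rank was 936, 922, 1392 and 1390. The rank thus differed by 14 places between treatments in CK1750 and by 2 in Tnm2, and the peak ranked lower in Tnm2 than in CK1750. The Wwtr1 promoter peak (chr3:57455649-57575910, minus strand) scored 3100 in both CK1750 lists, 2726 in Tnm2 DMSO and 1121 in Tnm2 UNC0638. Its percentile was 98.8, 99.0, 99.1 and 98.2, so it stayed close to the top of each list.

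The coactivator genes differed in their distal peaks. Yap1 had 3, 1, 1 and 1 distal peaks, and 1 of them, between genes at -13.1 kb from the 5′ end (minus for upstream), was in all 4 lists. That peak had percentiles of 82.6, 66.4, 57.1 and 29.7, highest in CK1750 DMSO and lowest in Tnm2 UNC0638. Wwtr1 had 9, 11, 13 and 6 distal peaks. Its joined distal regions numbered 16, of which 5 were in all 4 lists. The highest-scoring was downstream of the gene (joined region chr3:57408939-57412596), with percentiles of 87.2, 93.7, 89.3 and 77.4. An intronic peak (joined region chr3:57470318-57471844) was also in every list, at 75.6, 79.9, 87.7 and 69.1. Near the start site of the neighbour Tm4sf4, a peak at chr3:57422845-57425361 in CK1750 UNC0638 had a percentile of 68.7, while the peaks there had 18.5, 20.4 and 11.0 in CK1750 DMSO, Tnm2 DMSO and Tnm2 UNC0638.

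The TEAD genes, which encode the DNA-binding partners, had peaks at several internal start sites. The peak at the 5′ end of Tead1 (chr7:112679318-112906807, plus strand) scored 3100, 3100, 3088 and 1100, at percentiles of 98.8, 99.0, 99.3 and 98.2. A second Tead1 promoter region, chr7:112690070-112692604, lay 12 kb into the gene. Its score was 61.0 in CK1750 DMSO, 282 in CK1750 UNC0638, 586 in Tnm2 DMSO and 327 in Tnm2 UNC0638. Its percentile was 14.9, 62.0, 84.8 and 82.6, so in CK1750 it ranked low with DMSO and in the middle with UNC0638, while it ranked high in both Tnm2 lists. An intronic Tead1 peak 17.6 kb from the 5′ end was in all lists, at 80.5, 81.4, 74.9 and 59.2.

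Tead4 (chr6:128224288-128300823, minus strand) had peaks at its 5′ end and at an internal start site. The peak at its 5′ end had percentiles of 95.3 and 93.1 in CK1750 (DMSO, UNC0638) and 89.7 and 69.9 in Tnm2. The peak at its internal start, chr6:128274702-128276639, had lower percentiles in CK1750 (42.9 and 43.2) than in Tnm2 (75.5 and 80.5). The peak at the 5′ end outranked the internal one in all lists but Tnm2 UNC0638, where the internal peak was higher, with scores of 298 and 203. Tead4 also had the most distal peaks of the 10 genes in Tnm2 DMSO, 14, beside 9 and 7 in CK1750 and 5 in Tnm2 UNC0638. The region over the last part of the gene (chr6:128223575-128227068) was in all lists at 92.6, 95.2, 93.8 and 84.4. Its 3494 bp held 6 GGAATG matches, a count given without a background for regions of that length. Its central bases, the part for which shares of all regions are given above, held 1 match.

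The upstream genes had high-ranking promoters. Lats2 had 3, 2, 4 and 2 distal peaks. The highest Lats2 promoter peak was not at the 5′ end of the gene (chr14:57689662-57758388, minus strand) but 12.4 kb inside it, over other start sites of Lats2 (chr14:57744991-57747075). It scored 3100, 3100, 3019 and 1410, at percentiles of 98.8, 99.0, 99.3 and 99.1. The region at -2.19 kb from the 5′ end ranked lower, at 59.6, 37.8, 26.6 and 35.4. The Lats2 distal peaks found in all lists were both at start sites of neighbours, Xpo4 and Sap18. The one at Xpo4 was the highest in each list, at 87.7, 79.2, 87.0 and 78.5. The Amotl2 promoter peak (chr9:102716672-102733418, plus strand) scored 3100, 3100, 1639 and 566, at 98.8, 99.0, 96.8 and 92.7. Amotl2 had 2 distal peaks in each DMSO list and 0 in each UNC0638 list. None of those 4 distal peaks had a score above 77.2, and none was shared between the lines.

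**Figure D2:**
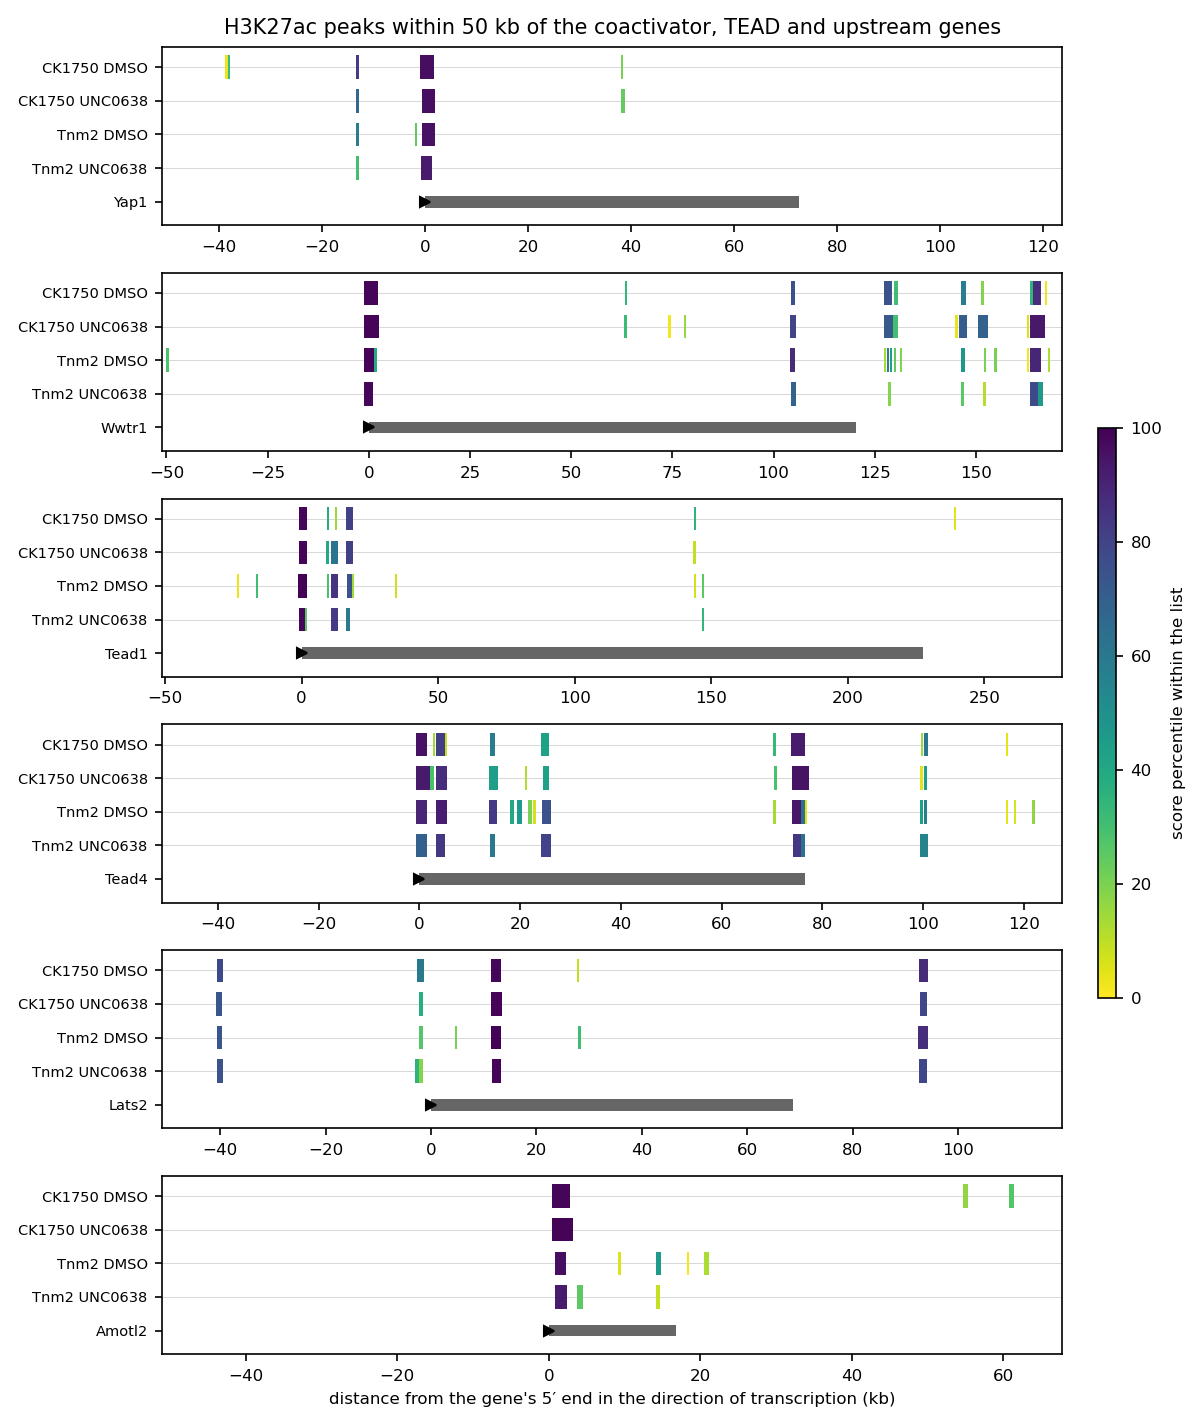
Peaks within 50 kb of Yap1, Wwtr1, Tead1, Tead4, Lats2 and Amotl2 in the 4 lists (rows), by distance from the gene's 5′ end in kb (x axis; grey bar, the gene; arrowhead, its 5′ end), coloured by score percentile within the list. Peaks too narrow to be seen are drawn at a fixed smallest width. Dark peaks at the 5′ end, or 12.4 kb inside Lats2, were in every list.

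Cyr61, a secreted matrix protein, had the highest and widest promoter peak. Its score was 3100 in CK1750 DMSO, CK1750 UNC0638 and Tnm2 DMSO, and 1914 in Tnm2 UNC0638. Its rank was 53, 51, 29 and 65, and its percentile was 98.8, 99.0, 99.6 and 99.7. In the first 3 lists the rank is the first place of a tie of 558, 371 and 169 peaks at 3100, so ranks do not compare between lists. The peak was 6101, 6242, 5528 and 5778 bp wide, beside median widths of 835, 1048, 831 and 1040.5 bp over all peaks, and reached from between 1.09 and 1.84 kb inside the gene (chr3:145646976-145649981, minus strand) to between 4.28 and 4.44 kb upstream of its 5′ end. A distal region at -35.3 kb (chr3:145683933-145686652) was in all lists, at percentiles of 83.5, 91.2, 92.2 and 89.1. A region 31.4 kb downstream of the 5′ end (chr3:145617876-145619232) was in both CK1750 lists, at 57.8 and 65.2, and in neither Tnm2 list. A region 16.5 kb downstream had the other order: 6.23 and 3.93 in CK1750 and 62.5 and 39.6 in Tnm2.

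Ctgf, a relative of Cyr61, had a promoter peak of lower rank and no distal peak upstream. The promoter peak (gene chr10:24595442-24598683, plus strand) scored 730, 496, 246 and 65.5, at percentiles of 83.0, 74.6, 66.8 and 18.9. It was 1697, 1699, 935 and 778 bp wide. In rank it was thus lower with UNC0638 than with DMSO in both lines, with differences of -8.30 percentile points in CK1750 and -47.9 in Tnm2. The median change over all genes with a promoter peak in both lists was -2.28 points in CK1750 and -9.52 in Tnm2, and 23.7% and 3.97% of those genes had a change lower than that of Ctgf. Because the lists differ in length, each list was also reduced to its 18794 highest-scoring peaks, a choice made after seeing the data. The Ctgf promoter then had percentiles of 75.2 and 66.8 in CK1750 (DMSO, then UNC0638), and of 45.8 and 18.9 for Tnm2.

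The distal peaks of Ctgf lay 33.4 to 43.8 kb downstream of its 5′ end, and the region at 40.4 kb was in all lists, at 73.1, 70.4, 71.2 and 51.4. In the Tnm2 lists it outranked the promoter. In Tnm2 DMSO a peak 33.8 kb downstream was higher, at 75.7. The region at 43.8 kb, inside the neighbour Enpp1, had a peak in both CK1750 lists (69.8 and 66) and in Tnm2 UNC0638 (26.0), but not in Tnm2 DMSO.

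Ankrd1, a cardiac and muscle ankyrin-repeat protein, had its highest peak away from the promoter. The best promoter peak (gene chr19:36111961-36120099, minus strand) scored 555, 1003, 305 and 281, at percentiles of 78.6, 87.5, 71.9 and 79.0. The promoter was called as 2, 1, 2 and 2 peaks. In CK1750 DMSO these were 1964 and 1070 bp wide (scores of 555 and 342). In CK1750 UNC0638 the single peak was 3353 bp wide. The peak at -9.14 kb, between genes, scored 3100 in both CK1750 lists, 2646 in Tnm2 DMSO and 1166 in Tnm2 UNC0638. Its percentiles were 98.8, 99.0, 99.0 and 98.4, above the promoter in each list. The percentile of the best promoter peak was higher with UNC0638 than with DMSO, by 8.96 points in CK1750 and 7.06 in Tnm2. In CK1750 this sets 1 of 2 peaks beside a single wider peak, and in Tnm2 the score itself was lower with UNC0638. Of all genes, 92.9% and 97.4% had a change lower than that of Ankrd1. With equal numbers of peaks, its percentile was 68.8 with DMSO and 83.7 with UNC0638 in CK1750, and 54.3 and 79.0 in Tnm2.

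Axl, a receptor tyrosine kinase, had the lowest promoter of the 10 genes except in Tnm2 UNC0638, where Ctgf was lower. Its best promoter peak (gene chr7:25757273-25788705, minus strand) scored 352, 146, 191 and 86.9, at percentiles of 69.9, 44.0, 59.8 and 35.3. The percentile was lower with UNC0638, with differences of -26.0 points in CK1750 and -24.5 in Tnm2. Of all genes, 3.34% and 20.5% had a change lower than that of Axl. With equal numbers of peaks the difference remained in CK1750 (56.2 and 26.6) but not in Tnm2 (34.5 and 35.3). The highest distal peak, at 95, 95, 96.5 and 93, lay over the start site of the neighbour Hnrnpul1. An intronic peak 6.87 kb from the 5′ end, whose sequence is given above, was in all lists, at 70.2, 63.4, 54.1 and 1.55. It outranked the Axl promoter in both CK1750 lists and in neither Tnm2 list.

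**Figure D3:**
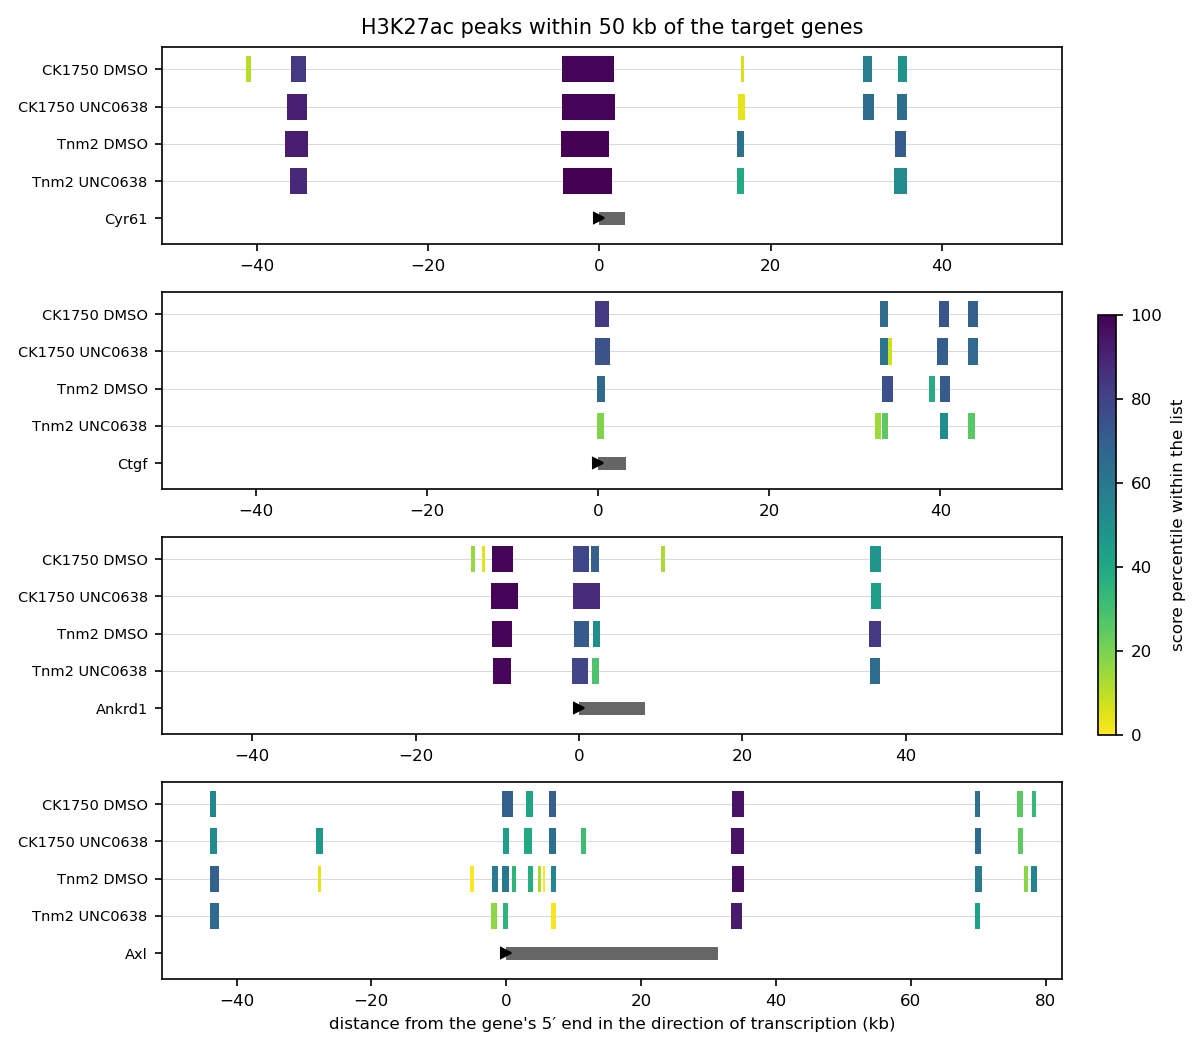
Peaks within 50 kb of Cyr61, Ctgf, Ankrd1 and Axl in the 4 lists (rows), by distance from the gene's 5′ end in kb (x axis; grey bar, the gene; arrowhead, its 5′ end), coloured by score percentile within the list. Peaks too narrow to be seen are drawn at a fixed smallest width. The Ankrd1 peak at -9.14 kb is darker than its promoter in all lists, and the Ctgf promoter is palest in Tnm2 UNC0638.

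The 10 genes together had 65, 57, 82 and 48 peaks, of which 17, 18, 23 and 19 were promoter peaks and 48, 39, 59 and 29 were distal. The median number of distal peaks per gene was 4, 3, 3.5 and 2.5, beside 2, 1, 2 and 1 over all protein-coding genes. Those genes include the ones without a promoter peak, whereas all 10 genes had one. The window searched also grew with gene length, which was 227 kb for Tead1 and 120 kb for Wwtr1. The background was matched for neither. The peaks covered 81.3, 90.8, 88.0 and 65.0 kb in all. When each list was reduced to its 18794 highest-scoring peaks, the distal peaks numbered 30, 30, 29 and 29, so the differences between lists were not present among equal numbers of peaks. Without peaks near a start site of any gene, the distal peaks numbered 34, 29, 42 and 20.

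**Figure D4:**
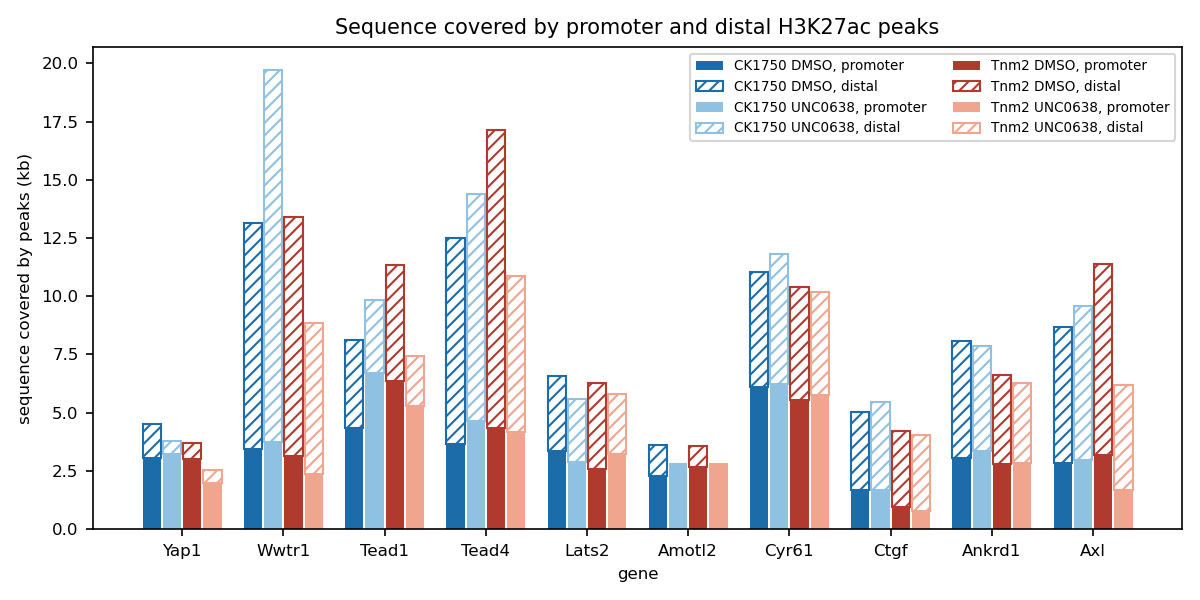
Sequence covered by peaks in kb (y axis) for each gene (x axis) and list, divided into promoter (filled) and distal (hatched) peaks. Wwtr1 in CK1750 UNC0638 has the tallest bar, 19.7 kb, and Amotl2 has no distal peak with UNC0638.

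The peaks of each treatment were then matched within a line, by an overlap of at least 1 bp. In CK1750, 13 of 65 DMSO peaks of the 10 genes had no UNC0638 peak (20%, Wilson 95% interval 12.1 to 31.3), beside 21.8% of all DMSO peaks. Of the UNC0638 peaks, 7 of 57 had no DMSO peak (12.3%, 6.08 to 23.2), beside 19.6% of all. In Tnm2, 37 of 82 DMSO peaks had no UNC0638 peak (45.1%, 34.8 to 55.9), beside 43.1% of all, and 4 of 48 UNC0638 peaks had no DMSO peak (8.33%, 3.29 to 19.6), beside 8.81% of all. The backgrounds lay within these intervals, which cover counting error only. With both lists of a line reduced to the same number of top-scoring peaks, the share for Tnm2 DMSO was 3 of 44 (6.82%, 2.35 to 18.2), beside 20.5% of all, and for Tnm2 UNC0638 it was 7 of 48 (14.6%, 7.25 to 27.2), beside 18.6%. In CK1750 it was then 7 of 57 (12.3%), beside 17.3%, and 8 of 57 (14.0%), beside 22.5%.

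Peaks without a match had low scores. Their median score was 57.0 in CK1750 DMSO, 63.3 in CK1750 UNC0638, 63.8 in Tnm2 DMSO and 73.0 in Tnm2 UNC0638, where 50 is the calling cutoff. Among DMSO peaks with scores of at least 100, 0 of 39 in CK1750 had no match, which allows a share of up to 7.69% (3 counts of the total), beside 5.16% of all such peaks. In Tnm2 it was 6 of 47 (12.8%, 5.98 to 25.2), beside 21.5% of all. Among UNC0638 peaks with such scores it was 1 of 41 in CK1750 (2.44%, 0.432 to 12.6), beside 5.43% of all, and 0 of 29 in Tnm2, which by the same rule allows up to 10.3%, beside 0.751% of all.

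No peak without a match reached a score of 200. The highest in CK1750 DMSO was an Axl peak 78.3 kb downstream of the 5′ end (score 89.5), followed by a Yap1 peak at the start site of the neighbour Cfap300 (86.8). The highest in CK1750 UNC0638 was at chr7:25815902-25816901, upstream of Axl and over start sites of Cyp2s1 and Gm26707, with a score of 157. In Tnm2 DMSO the highest were near Axl (161, at chr7:25710004-25710941) and in an intron of Tead4 (123, at chr6:128280527-128281471). In the same list the highest for Wwtr1 was a promoter peak with a score of 103 directly beside its main peak, and for Ctgf a distal peak of 101. Also in that list were those of Lats2, in an intron (87.6), and of Tead1, upstream at chr7:112662620-112663411 (85.8). The highest for Ankrd1 was at -13.0 kb (62.1) and for Cyr61 at -41.0 kb (57.0), both in CK1750 DMSO. The highest in Tnm2 UNC0638 was a Lats2 peak before the 5′ end (87.0), and the others were of Ctgf (73.4 and 61.2) and Amotl2 (72.5).

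**Figure D5:**
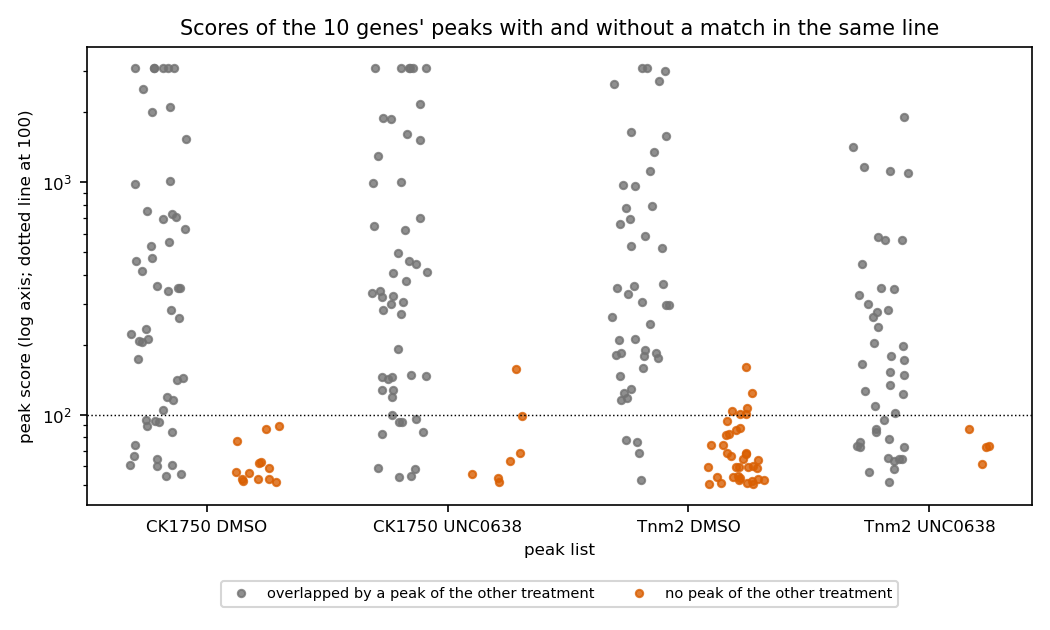
Scores of the 10 genes' peaks (y axis, log scale; dotted line, a score of 100) in each list (x axis), with peaks overlapped by a peak of the other treatment of the same line in grey and those without in orange. All 13 orange points of CK1750 DMSO and all but 6 of the 37 of Tnm2 DMSO lie below 100.

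Between the lines, 48 of the 65 DMSO peaks of CK1750 had a Tnm2 peak (73.8%, 62.0 to 83.0), beside 73.6% of all, and 52 of the 82 DMSO peaks of Tnm2 had a CK1750 peak (63.4%, 52.6 to 73.0), beside 65.1%. With UNC0638 it was 40 of 57 for CK1750 (70.2%, 57.3 to 80.5), beside 61%, and 44 of 48 for Tnm2 (91.7%, 80.4 to 96.7), beside 82.6%. Joined over the 4 lists, 37 of the 95 regions of the 10 genes were in all lists (38.9%), beside 34.2% of all 37710 regions. By class, 13 of 24 promoter regions were in all lists (54.2%, beside 52.4% of regions near any start site), as were 24 of 71 distal regions (33.8%), some of which lay at start sites of neighbours. Away from any start site, 15 of 52 were in all lists (28.8%), beside 19% of all such regions. The largest class after these was of 23 regions in Tnm2 DMSO alone, the longest list (24.2%, beside 17.4% of all regions).

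Other genes of the pathway were described in the same way. For comparison, 50%, 49.1%, 49.4% and 41.3% of all protein-coding genes had a promoter peak, and 39.3% had it in all lists. Of 18 further regulators (Hippo kinases and their partners, angiomotins, TEAD genes and junction proteins), 18, 18, 17 and 16 had a promoter peak, and 16 had it in all lists. Amot, an angiomotin, had a promoter peak in both CK1750 lists (percentiles of 46.6 and 11.2) and in neither Tnm2 list. Limd1, a LIM protein that restrains LATS kinases, lacked it in Tnm2 UNC0638. Lats1, the paralog of Lats2, ranked near the top of every list, at 98.8, 99.0, 99.6 and 99.3. Of 15 further genes of YAP/TAZ target signatures, 11, 9, 12 and 8 had a promoter peak, and 8 had it in all lists. Igfbp3 and Rbms3 had none in any list. Fjx1 had one in both DMSO lists, at 9.19 and 2.53, and Tgfb2 in every list but that of Tnm2 UNC0638. Ccdc80 and Nt5e had one in Tnm2 DMSO (22.1 and 39.3), and Nuak2 in CK1750 DMSO (41.5). F3, which encodes tissue factor, had percentiles of 94.2, 99.9, 87.2 and 79.4.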

How the data were processed

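H3K27ac ChIP-seq was done in CK1750 and Tnm2 cells with DMSO or UNC0638. The study's methods give mapping to mouse build 38 (mm10) with bowtie2 and MACS 1.4.2 for the peaks (P value below 1e-05), and the submitters' processing notes also name SAMtools. The deposited score of each peak is −10 log10 of its P value, made by the authors' caller, so that the cutoff is a score of 50. Each group's samples share 1 merged list. Which libraries entered a list, and whether input DNA served as control, is not given in the sources used here. The 21 H3K9me2 and input samples were not used here.

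Peaks were read as 1-based intervals, all inside the 21 chromosomes of GRCm38. Start sites came from GENCODE M21. Python 3.11.15 was used with pandas 2.3.3, numpy 2.4.6, scipy 1.17.1 and pysam 0.24.0. Promoter windows were 2.5 kb and gene windows 50 kb, peaks matched at 1 bp, and shares have Wilson 95% intervals, except that a count of 0 is given with the limit of 3 counts of the total. Overlap and window functions were tested on simulated data. The genes, lists and alternatives were chosen with earlier results of these data known. All 10 genes were named, with their best promoter and distal peaks and each gene's highest peak without a match. The alternatives were a score of at least 100, windows of 1 kb and 10 kb, equal numbers of peaks, a reciprocal overlap of 50%, and any peak within 1 kb. Without replicates, no p-value was computed.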

Additional observations from a re-analysis of the deposited data

Results flagged for a closer look

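Results were picked out where the difference between UNC0638 and DMSO had opposite signs in the 2 lines. None of these differences was tested, since each group had 1 list, and the lists of Tnm2 differed more in length than those of CK1750. Over all peaks, the median width was 835 bp (DMSO) and 1048 bp (UNC0638) in CK1750, and 831 and 1040.5 bp in Tnm2. The share of all genes with opposite signs is not given here, so the pattern is not shown to be particular to these genes. The number of peaks within 50 kb of Wwtr1 differed by 2 in CK1750 (UNC0638 minus DMSO), whereas the Tnm2 difference was -8. For Axl the differences were 1 in CK1750, and -8 in Tnm2. The sequence covered by peaks around Wwtr1 differed by 6.58 kb in CK1750, against -4.56 kb in Tnm2. For Tead1 the covered sequence differed by 1.72 kb and -3.91 kb, for Tead4 by 1.91 kb and -6.25 kb, and for Axl by 0.890 kb and -5.20 kb, each in CK1750 and then in Tnm2. The differences were smaller for Cyr61 (0.769 kb and -0.212 kb) and for Ctgf (0.424 kb and -0.169 kb).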

How the results depend on the processing

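No paired analysis was possible because each group had 1 merged peak list. Of 60 recomputed values for 16 results, 40 were labelled the same, 20 moved and 0 reversed. Of the 60, 8 came from alternatives chosen after seeing the data. The results are counts, shares and median percentiles, which have no sign, so no single value could reverse. The label is a coarse measure of closeness. The distal peaks of CK1750 with UNC0638, 39 as reported and 26 with scores of at least 100, were labelled the same. The number of the 10 genes with a promoter peak stayed at 10 in all lists, except 8 in Tnm2 with UNC0638 at scores of at least 100.

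With scores of at least 100, distal peaks numbered 24, 26, 30 and 19 (CK1750 with DMSO and UNC0638, then Tnm2). In CK1750 the order of DMSO and UNC0638 was then the other way from the reported 48 and 39. At those scores, 0% of the DMSO peaks of CK1750 were lost, and 0% of the UNC0638 peaks of Tnm2 were absent with DMSO. With a reciprocal overlap of 50%, the share of peaks without a match was 30.8%, 21.1%, 50% and 14.6% in the same order of lists. With a gene window of 10 kb, distal peaks numbered 17, 16, 29 and 11 (CK1750 with DMSO and UNC0638, then Tnm2). With equal numbers of peaks, they numbered 30 in CK1750 with DMSO and 29 in Tnm2 with DMSO, the median promoter percentile was 96.6 (CK1750 with DMSO), 96.9 (CK1750 with UNC0638) and 93.7 (Tnm2 with DMSO), and 6.82% of the DMSO peaks of Tnm2 were lost. Counted as any peak within 1 kb, 32.9% of the DMSO peaks of Tnm2 were lost. Among promoter peaks alone, the median percentile was 95.9, 96.2, 93.1 and 88.9. The lists end at a cutoff and depth was unknown, so an absent peak may lie just below the cutoff.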

Other observations

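The letters CAGGAATGT, on either strand, were shared by 4 of the 7 promoter sites, those of Yap1, Amotl2, Cyr61 and Axl. They were in 124 of the 32851 promoter windows of the table (0.377%). Of those 32851 windows, 4153 held GGAATG on either strand, and these are the closer background for sites chosen to hold it. The letters were picked as the most frequent ones around the 7 sites. This was noticed in the sequences of the 10 genes and is a description of them.

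Ankrd1 and Axl had distal peaks that outranked their promoters in all 4 lists. Tead4 had such a peak in all lists but CK1750 DMSO, and Ctgf had one in both Tnm2 lists. The high Ankrd1 peak lay between genes, away from any annotated start site, while the high Axl peak lay over the start site of Hnrnpul1.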
